A study of Mus musculus with 6 samples.

Results

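Genes for enzymes and motors that write, erase, read or move chromatin marks were followed in 6 RNA sequencing libraries of 4T1-Luc2-RFP cells. They were the 90 genes, of 13912 in the deposited table, whose symbols begin with Dnmt, Hdac, Sirt, Kdm, Kmt, Brd or Chd and a digit, with Setd or with Smarc, or are Tet1 to Tet3, Ezh1 or Ezh2. The line, 4T1, derives from a mammary carcinoma of a BALB/c mouse and carries genes for luciferase and a red fluorescent protein (Luc2 and RFP). The tumour group was 3 libraries of such cells taken by flow sorting out of intraductal tumours of the mammary gland, called MIND tumours in the labels. The titles of all 3 carry the word Right. The cultured group was 3 libraries of the same line kept in culture and not injected. All 6 libraries carry the strain label balb/c and come from 1 line. The labels do not tell whether the libraries within a group are from different mice or dishes. The p-values therefore rest on the spread among these libraries alone, part of which may be technical. Sorting is named for the tumour libraries alone, so sorting and growth in the gland cannot be told apart.

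Chromatin is controlled by enzymes that place or remove methyl and acetyl groups on DNA and histones, by bromodomain proteins that bind acetylated histones, and by ATP-driven machines that slide or evict nucleosomes. DNMT enzymes methylate cytosine and TET enzymes oxidise the methyl group. EZH enzymes, the catalytic subunits of Polycomb repressive complex PRC2, methylate histone H3 at lysine 27, and the KDM6 enzymes remove that mark. Histone deacetylases and sirtuins remove acetyl groups, and the SMARC genes encode the SWI/SNF complexes and related motors.

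The libraries held 35448588 to 41469090 reads each, recovered from the deposited log2 values. Levels are given in log2 CPM, where CPM is the read count scaled to the size of the library, and changes are tumour minus cultured means on that scale. Carcinoma epithelial markers, 9 of 10 listed being in the table, summed to 2811 to 3290 CPM in tumour libraries and 2721 to 3664 CPM in cultured libraries. Of these 9 markers 1 rose, 2 fell and 6 were not called, with changes from -0.96 to 2.13. Markers of host cells were also present in the tumour libraries. The 12 macrophage markers summed to 5300 to 8249 CPM in tumour libraries and 27.9 to 39.3 CPM in cultured libraries, and all 12 rose. The 8 fibroblast markers summed to 6224 to 7989 CPM in tumour libraries and 23.6 to 51.6 CPM in cultured libraries, and all 8 rose. Of 8 neutrophil markers 5 were in the table and rose, with sums of 2592, 216 and 1157 CPM in tumour libraries 1, 2 and 3 and at most 0.434 CPM in cultured libraries. The 6 endothelial markers rose and summed to 89.3 to 140 CPM in tumour libraries and at most 0.517 CPM in cultured libraries, and the 3 lymphocyte markers in the table, of 9 listed, rose and summed to 4.59 to 4.92 CPM in tumour libraries and at most 0.0552 CPM in cultured libraries. Retnlg, Emcn, Cd4 and Cd8a had 0 reads in culture. Genes with very few reads over all libraries are absent from the table. The neutrophil, endothelial and lymphocyte markers, with so few reads in culture, thus owe their place in it to their tumour reads. Their direction was fixed by that filter, so for these lists only the levels in tumour libraries are informative. Of 12 G2/M genes of cell division, 11 fell, and they summed to 1139 to 1513 CPM in tumour libraries and 2656 to 3919 CPM in cultured libraries. These bulk values cannot tell fewer cells of a type from less RNA per cell, and the part of host or dividing cells in the changes given here was not tested.

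Of the 90 chromatin genes 61 did not pass the test, and most changes were small. Of the 90 genes, 29 passed limma's test with Benjamini-Hochberg adjustment over all genes at 0.05, which is 32.2% of them, beside 48.2% of all genes. Of these, 15 rose (29.5% of all genes rose) and 14 fell (18.8% of all genes fell). The 15 include Hdac9, Dnmt3l and Chd3os, with 2 to 6 reads over the cultured libraries, whose place in the table came from their tumour reads. These genes also count among the members without overlap and those changed 2-fold or more. With a filter on a mean of at least 1 log2 CPM, 12 of 85 members rose and 13 fell, beside 2246 and 2385 of 10970 genes. Libraries of the groups did not overlap for 18 members in each direction. Beside this, they did not overlap for 59.8% of all genes, 34.6% with the tumour libraries higher and 25.2% with them lower. The median absolute change was 0.37 for the members and 0.66 for all genes, on the log2 scale. The median signed change was -0.02 for the members and 0.08 for all genes. A change of 2-fold or more, called or not, was seen in 15 members (16.7%, beside 35% of all genes). Counts of the role lists given here stand beside the same shares of all genes, 29.5% higher and 18.8% lower.

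**Figure D1:**
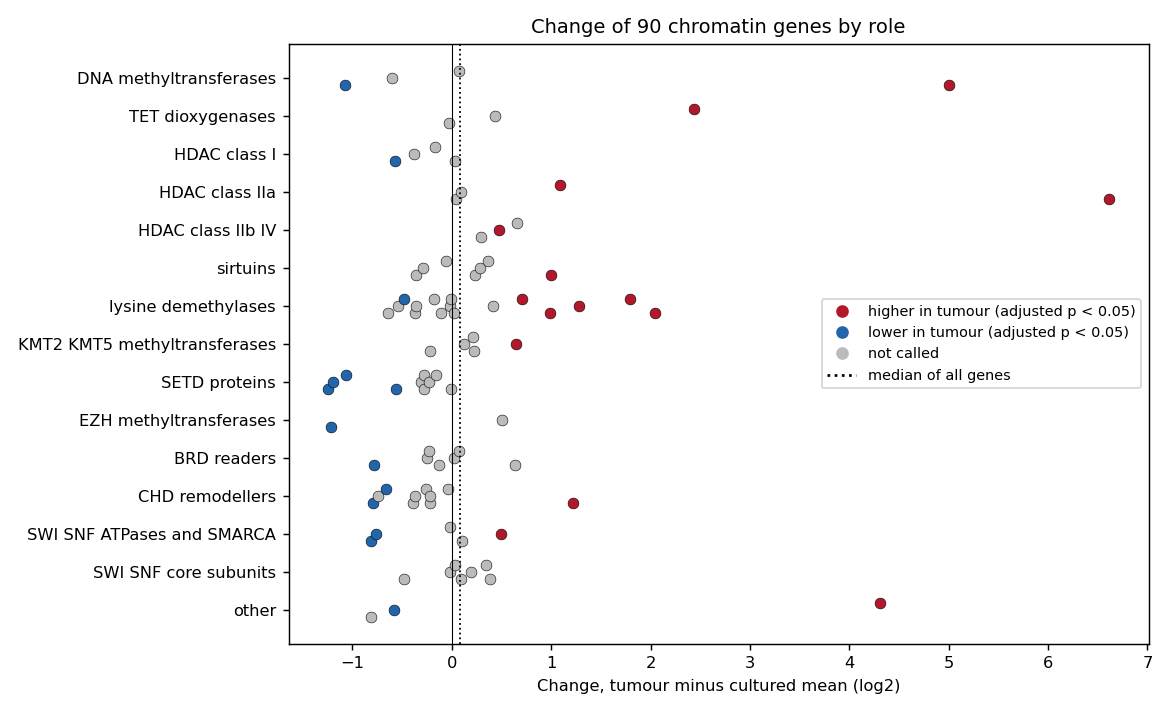
Change of each of the 90 chromatin genes (tumour minus cultured mean, log2, horizontal axis) by role list (rows), with genes higher in tumour libraries in red, lower in blue and not called in grey. The dotted line is the median of all genes at 0.08. Most points lie within 1 of 0, and the points far to the right are Hdac9, Dnmt3l, Chd3os and Tet2.

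The balance of calls depended on how libraries were scaled. As deposited, 51.7% of the called members were higher in tumour libraries, beside 61.1% of all called genes. That gap rested partly on genes with low values. With a filter on a mean of at least 1 log2 CPM, 48.0% of the called members were higher, beside 48.5% of all called genes. The median changes were then -0.04 for the members and -0.08 for all genes. With each library centred on its median, 11 were higher and 23 lower (32.4% higher, beside 48.1% of all called genes). After quantile normalization there were 12 higher and 24 lower (33.3% higher, beside 35.2% of all called genes). Scaled to the epithelial markers there were 11 higher and 16 lower (40.7% higher, beside 54.7%). The share over all called genes thus moved down under the same scalings. Those scalings moved the median change of all genes by -0.22, -0.40 and -0.10. None of the 29 called members changed sign under those scalings. Without tumour library 1 or tumour library 3 there were 9 higher and 8 lower, and without cultured library 3 there were 17 higher and 22 lower. Over all genes the share called was 35.2% without tumour library 1, 34.7% without tumour library 3 and 57.0% without cultured library 3, beside 48.2% with all libraries.

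Among genes of DNA methylation, the maintenance methyltransferase fell and a single TET dioxygenase rose. Dnmt1, which copies methylation onto the new DNA strand after replication, stood at 7.40, 7.58 and 7.16 log2 CPM in tumour libraries and 8.18, 8.17 and 9.03 in cultured libraries. Its groups did not overlap, and cultured library 3 stood above the others. The change was -1.08 (SE 0.26, limma adjusted p = 0.0103), a level 2.11-fold lower in tumour libraries. Dnmt3a, a methyltransferase that sets new methylation, was at 66.7 ± 5.41 CPM in tumour libraries and 66.4 ± 25.3 CPM in cultured libraries (SD, n = 3 each) and did not pass. Its relative Dnmt3b was low, at 7.57 ± 0.77 CPM in tumour libraries and 11.6 ± 1.95 CPM in cultured libraries (SD, n = 3 each), and did not pass (change -0.61, limma adjusted p = 0.0608). Dnmt3b passed without cultured library 1 (limma adjusted p = 0.0329) and with no variance trend (0.045). Each other scaling also gave a call: median centring (limma adjusted p = 0.0187), epithelial marker scaling (0.0342) and quantile normalization (0.000743). Dnmt3b did not pass with library weights (limma adjusted p = 0.129), with the filter (0.0568) or without any other library (0.0804 to 0.211).

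Tet2, one of 3 dioxygenases that oxidise methylcytosine, stood at 7.21, 5.99 and 6.95 log2 CPM in tumour libraries and 4.69, 4.58 and 3.57 in cultured libraries. All tumour values were above all cultured ones, tumour library 2 being the lowest tumour library and cultured library 3 the lowest of all. The change was 2.44 (SE 0.40, limma adjusted p = 0.00159), 5.43-fold higher in tumour libraries. Tet3 did not pass, with a change of -0.03 (SE 0.16) around a tumour mean of 6.51 log2 CPM. Tet1 was near 1 CPM in both groups, with 0.62, -0.56 and 0.33 log2 CPM in tumour libraries and -0.69, 0.44 and -0.70 in cultured libraries, which overlap. Its change, 0.44 as deposited, was -2.64 after quantile normalization (limma adjusted p = 0.00171). Dnmt3l, which encodes a cofactor of the de novo methyltransferases without activity of its own, had 93 reads over the tumour libraries and 2 over the cultured libraries. The ratio of CPM was 49.4 (95% counting interval 13.3 to 414). A gene this low could enter the table only through its tumour reads, since no listed gene had fewer than 61 reads in all, so its direction was fixed by that filter.

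Among enzymes of H3 lysine 27 methylation, the writer gene Ezh2 fell and the eraser genes Kdm6a and Kdm6b rose. Ezh2 stood at 5.76, 6.0 and 5.80 log2 CPM in tumour libraries and 7.10, 7.02 and 7.10 in cultured libraries. The groups lay far apart beside their spread, with a change of -1.22 (SE 0.14, limma adjusted p = 0.000202), and the call held in 12 of 12 refits with another scaling, a filter, library weights, no variance trend or 1 library left out (limma adjusted p from 2.69e-05 to 0.00252). In CPM, Ezh2 was at 58.0 ± 5.21 in tumour libraries and 135 ± 4.25 in cultured libraries (SD, n = 3 each). Ezh1, the related methyltransferase known from non-dividing cells, was at 5.75, 5.59 and 5.71 log2 CPM in tumour libraries and 5.35, 5.60 and 4.58 in cultured libraries. Its groups overlapped and it did not pass (change 0.51, limma adjusted p = 0.146).

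Kdm6b, the demethylase JMJD3, which is known as inducible in macrophages, stood at 8.81, 7.62 and 8.44 log2 CPM in tumour libraries and 7.10, 6.65 and 5.74 in cultured libraries. Every tumour value was above every cultured one, with the lowest tumour value in library 2. The change was 1.79 (SE 0.41, limma adjusted p = 0.00827), or 3.46-fold higher. Kdm6a, the X-linked demethylase UTX, was at 6.27, 5.73 and 6.14 log2 CPM in tumour libraries and 5.37, 5.59 and 5.06 in cultured libraries, with a change of 0.70 (SE 0.21, limma adjusted p = 0.0246). The Kdm6a call was lost without tumour library 1 (limma adjusted p = 0.106), tumour library 3 (limma adjusted p = 0.0949) or cultured library 1 (limma adjusted p = 0.0542). It was also lost after centring on the median (limma adjusted p = 0.079) and when scaled to the epithelial markers (limma adjusted p = 0.0517).

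**Figure D2:**
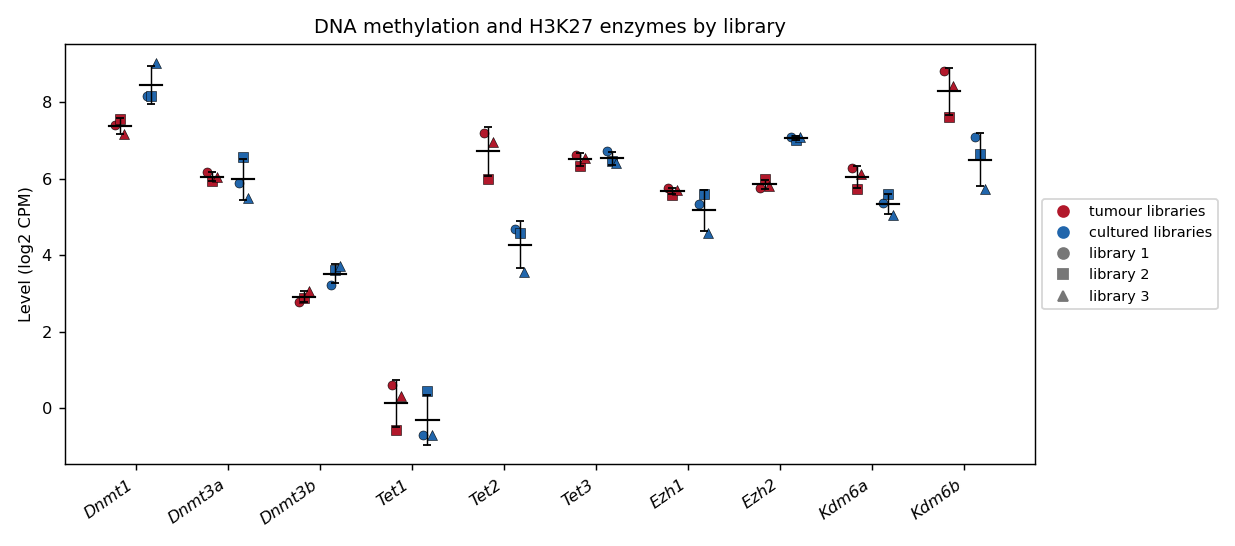
Levels (log2 CPM, vertical axis) of enzymes of DNA methylation and of H3 lysine 27 methylation in 3 tumour (red) and 3 cultured (blue) libraries. Symbols mark the library number, horizontal lines the mean and bars the SD of 3 libraries. Dnmt1 and Ezh2 are lower, and Tet2, Kdm6a and Kdm6b higher, in tumour libraries with no overlap. Dnmt3l, far below the others in culture, is left out.

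Promoter sequence was searched for a small set of motifs, in windows of RefSeq on GRCm38.p6 that run from 250 bases before to 50 bases after an annotated start. Of the 90 members 70 matched by symbol, with 98 windows. These were 10 members that rose, 13 that fell and 47 not called, and a gene with several starts counts with each window. Kdm6b, Chd7, Kdm4b, Kmt2e and Chd3os, which rose, had no window. The E2F letters TTTCCCGC, TTTCGCGC, TTTGCCGC and TTTGGCGC, read on both strands, occurred in 3 of 18 windows of members that fell (16.7%), 0 of 15 of members that rose and 2 of 65 of members not called (3.08%), beside 2.26% of all 32851 windows. The hypoxia response letters ACGTG occurred in 6 of 15 windows of members that rose (40.0%), 1 of 18 of members that fell (5.56%) and 9 of 65 not called (13.8%), beside 19.6% of all windows. The 6 windows are of Tet2, Kdm7a, Hdac5, Hdac6, Kdm6a and Dnmt3l. The 15 include windows of Dnmt3l and Hdac9, whose place in the table came from their tumour reads. In Dnmt3l, Hdac5 and Kdm6a the letters also lie within CACGTG, which reads the same on both strands. The other motifs, CGTCA of cyclic AMP response sites, CCAAT and TGANTCA of AP-1 sites, occurred in 26.7%, 33.3% and 20.0% of windows of members that rose. For members that fell their shares were 11.1%, 55.6% and 0 of 18, and for all windows 20.8%, 37.4% and 7.81%. Counted by gene, TGANTCA was in 2 of 10 members that rose, Kdm3a and Hdac9, beside 2425 of 27025 genes. Likewise CCAAT was in 7 of 13 members that fell, beside 11096 of 27025 genes. CGTCA and ACGTG can overlap by their shared letters. A match is a description of the letters only.

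The windows with E2F letters among members that fell are shown because Ezh2, Dnmt1 and Brd7 are the only ones of that group that hold them. All 3 genes lie on the minus strand and are read here 5′ to 3′ in the direction of the gene, with the E2F letters in capitals. The Ezh2 window is chr6:47594981-47595280 and its match begins 3 bases after the start. For Dnmt1 the window is chr9:20952574-20952873, one of 3 listed starts, with matches beginning 219 bases before the start, on the opposite strand, and 33 bases after it. The Brd7 window is chr8:88362123-88362422 and its match begins 28 bases before the start.
Ezh2: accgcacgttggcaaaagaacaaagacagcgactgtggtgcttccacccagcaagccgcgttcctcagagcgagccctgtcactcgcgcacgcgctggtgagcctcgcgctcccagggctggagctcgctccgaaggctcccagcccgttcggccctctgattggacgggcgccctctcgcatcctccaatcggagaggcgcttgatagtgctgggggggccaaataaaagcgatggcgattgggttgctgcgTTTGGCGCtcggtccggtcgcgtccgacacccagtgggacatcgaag
Dnmt1: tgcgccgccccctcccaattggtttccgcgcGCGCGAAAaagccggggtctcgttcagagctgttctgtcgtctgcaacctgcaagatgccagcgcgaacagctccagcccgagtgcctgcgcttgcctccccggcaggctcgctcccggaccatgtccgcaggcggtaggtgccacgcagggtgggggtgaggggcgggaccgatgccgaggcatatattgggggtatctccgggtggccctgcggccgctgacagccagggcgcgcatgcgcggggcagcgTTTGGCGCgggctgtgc
Brd7: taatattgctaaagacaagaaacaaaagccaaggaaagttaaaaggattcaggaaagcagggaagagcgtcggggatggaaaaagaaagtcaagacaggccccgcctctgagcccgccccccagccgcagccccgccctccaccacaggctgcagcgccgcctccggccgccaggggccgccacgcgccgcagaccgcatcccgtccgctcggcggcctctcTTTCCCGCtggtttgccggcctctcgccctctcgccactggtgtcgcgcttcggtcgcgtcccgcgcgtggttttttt

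For the members that rose, the windows of Tet2 and Kdm7a are shown, the members with the largest rise among those with ACGTG in the window that were well above 1 CPM in both groups. Tet2 has chr3:133544341-133544640 and Kdm7a chr6:39206724-39207023, both on the minus strand, with ACGTG or its reverse complement in capitals. The match begins 16 bases before the start for Tet2 and 139 bases before it for Kdm7a.
Tet2: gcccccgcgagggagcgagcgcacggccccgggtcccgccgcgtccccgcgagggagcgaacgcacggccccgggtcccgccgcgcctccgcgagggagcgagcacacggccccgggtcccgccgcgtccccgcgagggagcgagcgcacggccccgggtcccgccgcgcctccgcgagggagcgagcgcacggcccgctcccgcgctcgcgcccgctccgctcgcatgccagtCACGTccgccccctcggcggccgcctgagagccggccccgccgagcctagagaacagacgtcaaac
Kdm7a: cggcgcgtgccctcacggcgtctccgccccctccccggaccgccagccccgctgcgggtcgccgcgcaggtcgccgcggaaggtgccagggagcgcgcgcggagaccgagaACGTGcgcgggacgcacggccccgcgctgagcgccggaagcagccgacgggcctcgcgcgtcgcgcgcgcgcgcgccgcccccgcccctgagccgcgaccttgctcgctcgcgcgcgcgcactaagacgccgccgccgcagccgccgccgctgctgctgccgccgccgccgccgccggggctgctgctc

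Of 16 lysine demethylase genes in the table, 5 rose (31.2%, beside 29.5% of all genes) and 1 fell (6.25%, beside 18.8%), with a median change of -0.01. Kdm7a, a demethylase of H3 lysines 9 and 27, stood at 7.66, 6.66 and 7.49 log2 CPM in tumour libraries and 5.51, 6.19 and 3.98 in cultured libraries. The groups did not overlap, but the cultured libraries ranged widely. The change was 2.05 (SE 0.54, limma adjusted p = 0.0159), and the call was lost without tumour library 1 (limma adjusted p = 0.0544) or 3 (limma adjusted p = 0.0547). Without cultured library 3 the change was 1.43 (limma adjusted p = 0.0102). Kdm3a, an H3 lysine 9 demethylase whose gene is known to respond to hypoxia, had no ACGTG in its windows. Its levels were 7.83, 7.25 and 7.83 log2 CPM in tumour libraries and 5.98, 7.05 and 6.05 in cultured libraries. Cultured library 2 came close to tumour library 2 without reaching it. The change was 1.28 (SE 0.31, limma adjusted p = 0.0114), and the call held in 12 of 12 refits, with limma adjusted p at most 0.0468.

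Kdm4b, which removes methyl groups from H3 lysine 9, was at 73.1 ± 4.28 CPM in tumour libraries and 38.5 ± 13.8 CPM in cultured libraries (SD, n = 3 each). Its change was 0.98 (SE 0.26, limma adjusted p = 0.0154), and the call was lost without tumour library 1 (limma adjusted p = 0.0514) or 3 (limma adjusted p = 0.0585). Its relatives Kdm4a and Kdm4c, with changes of -0.64 and -0.54, did not pass. For both, cultured library 3 was below all tumour libraries while cultured libraries 1 and 2 were above them. Without that library both passed, with changes of -1.16 for Kdm4a (limma adjusted p = 0.000554) and -0.88 for Kdm4c (limma adjusted p = 0.00168). Kdm1a, the demethylase LSD1 of the CoREST complex, was the member that fell, at 7.11, 7.20 and 7.13 log2 CPM in tumour libraries and 7.55, 7.80 and 7.54 in cultured libraries. The change was -0.48 (SE 0.14, limma adjusted p = 0.0233), and leaving out any tumour library ended the call (limma adjusted p from 0.0544 to 0.101). In all, 10 demethylase genes did not pass, among them Kdm5b with a change of 0.42 (SE 0.52), which was -0.25 without cultured library 3 (limma adjusted p = 0.298).

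Writers in the SETD list fell or did not pass. Of 10 genes 4 fell and none rose (0 of 10), and the median change was -0.30, beside 0.08 for all genes. All 10 changes were below 0, but 6 genes did not pass, among them Setd3 at -0.01 (SE 0.13). Setd7, a lysine methyltransferase named for H3 lysine 4 that also acts on other proteins, stood at 6.80, 6.71 and 6.64 log2 CPM in tumour libraries and 8.02, 8.14 and 7.60 in cultured libraries. The groups did not overlap, with a change of -1.20 (SE 0.17, limma adjusted p = 0.000896). Setd6, a methyltransferase known for the NF-kB subunit RELA, stood at 4.39, 4.54 and 4.43 log2 CPM in tumour libraries and 5.73, 5.79 and 5.60 in cultured libraries. This was the largest fall among the 90 genes as deposited, -1.25 (SE 0.15, limma adjusted p = 0.000297). Calls for Setd6 and Setd7 held in 12 of 12 refits.

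Setd4 fell by 1.06 (SE 0.27, limma adjusted p = 0.0128) at 1.69 ± 0.14 CPM in tumour libraries and 3.53 ± 0.29 CPM in cultured libraries (SD, n = 3 each). Without tumour library 1 its limma adjusted p was 0.0739, and 0.0583 without library 3 of that group. After quantile normalization its change was -3.17. Setdb2, a relative of the H3 lysine 9 methyltransferase SETDB1, changed by -0.57 (SE 0.19, limma adjusted p = 0.0426). That call was lost without any 1 of the tumour libraries (limma adjusted p from 0.117 to 0.13) and without cultured library 1 (limma adjusted p = 0.0991). Outside that list, Setd8, the older symbol of Kmt5a, the methyltransferase of H4 lysine 20 in dividing cells, was at 66.8 ± 4.04 CPM in tumour libraries and 101 ± 17.8 CPM in cultured libraries (SD, n = 3 each). Its change was -0.58 (SE 0.17, limma adjusted p = 0.0215), and the call was lost without tumour library 1 (limma adjusted p = 0.0774) or 3 (limma adjusted p = 0.0933). Setd2, the enzyme of H3 lysine 36 trimethylation, did not pass (change -0.31, SE 0.18), but did without cultured library 3 (change -0.46, limma adjusted p = 0.0336). Of the KMT2 genes, which encode methyltransferases and relatives of the MLL family, Kmt2e rose and the other 4 did not pass. Kmt2e changed by 0.64 (SE 0.22, limma adjusted p = 0.0414), and its call was lost in 7 of 12 refits, among them without tumour library 1 (limma adjusted p = 0.133), tumour library 2 (0.0687), tumour library 3 (0.122) and cultured library 2 (0.0608).

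Of the histone deacetylases, Hdac5, Hdac6 and Hdac9 rose and Hdac2 fell. In class IIa, whose proteins shuttle between nucleus and cytoplasm, Hdac5 stood at 6.93, 6.74 and 7.08 log2 CPM in tumour libraries and 6.0, 5.89 and 5.58 in cultured libraries. The groups did not overlap, and the change was 1.09 (SE 0.17, limma adjusted p = 0.00123). Hdac9, of the same class, had 436 reads over the tumour libraries and 5 over the cultured libraries, a ratio of CPM of 92.7 (95% counting interval 39.4 to 287). It remained low in tumour libraries, at 3.82 ± 1.49 CPM (SD, n = 3), and as with Dnmt3l its place in the table came from its tumour reads. Hdac4 and Hdac7 did not pass, with changes of 0.09 and 0.04, and without cultured library 3 Hdac4 was at -0.27.

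In class I, the nuclear deacetylases of corepressor complexes, 1 of 4 genes fell and 3 did not pass. Hdac2 was at 6.87, 7.17 and 6.90 log2 CPM in tumour libraries and 7.36, 7.48 and 7.81 in cultured libraries, with a change of -0.57 (SE 0.17, limma adjusted p = 0.027). This call was lost without tumour library 1 (limma adjusted p = 0.111) or 3 (limma adjusted p = 0.11), and with no variance trend (limma adjusted p = 0.0525). Hdac1 did not pass, at 17.5 ± 0.75 CPM in tumour libraries and 17.5 ± 4.68 CPM in cultured libraries (SD, n = 3 each). Hdac6, a class IIb enzyme that deacetylates tubulin, changed by 0.48 (SE 0.14, limma adjusted p = 0.0259). The Hdac6 call was lost without any 1 of the tumour libraries (limma adjusted p from 0.0851 to 0.0941), without cultured library 2 (0.052), after centring on the median (0.182) and when scaled to the epithelial markers (0.0687). Among 7 sirtuins, deacylases that use NAD, Sirt2 rose and the others did not pass. Sirt2, which acts mainly in the cytoplasm, stood at 6.56, 6.28 and 6.68 log2 CPM in tumour libraries and 5.57, 5.45 and 5.48 in cultured libraries. Cultured libraries lay close together and below all tumour libraries, with a change of 1.0 (SE 0.16, limma adjusted p = 0.00124).

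Among ATP-driven remodellers, the motor genes Smarca5, Smarcad1, Chd1 and Chd1l fell and Smarcal1 and Chd7 rose. Of 7 SWI/SNF core subunit genes 0 were called by limma, and their changes ran from -0.48 for Smarcc1 to 0.38 for Smarcd3. Of these, Smarcc2 passed without cultured library 3 (change 0.40, limma adjusted p = 0.0275). The catalytic subunit genes also did not pass. Smarca4, which encodes BRG1, stood at 242 ± 11.4 CPM in tumour libraries and 262 ± 116 CPM in cultured libraries (SD, n = 3 each). Smarca2, which encodes BRM, was at 62.5 ± 3.88 CPM in tumour libraries and 60.1 ± 19.3 CPM in cultured libraries (SD, n = 3 each). Cultured values of Smarca4 ran from 7.32 to 8.60 log2 CPM, and its change of -0.02 had an SE of 0.30 and was 0.31 without cultured library 3. Smarca5, the ISWI motor SNF2H, stood at 6.72, 6.78 and 6.65 log2 CPM in tumour libraries and 7.45, 7.27 and 7.71 in cultured libraries. All tumour values were lower, with a change of -0.76 (SE 0.16, limma adjusted p = 0.00519). The processed pseudogene Smarca5-ps had a change of -0.81 and did not pass (limma adjusted p = 0.058), though it did under 5 of the refits. Reads of such a near-copy and of its parent cannot be assigned with certainty.

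Smarcad1, a motor that keeps silent chromatin through replication, changed by -0.82 (SE 0.19, limma adjusted p = 0.0101). Smarcal1, which restarts stalled replication forks, was at 5.01, 5.04 and 5.04 log2 CPM in tumour libraries and 4.45, 4.52 and 4.62 in cultured libraries. Its change was 0.50 (SE 0.15, limma adjusted p = 0.0276), and the call was lost in 7 of 12 refits, among them without tumour library 1 (limma adjusted p = 0.11), 2 (0.0812) or 3 (0.117), without cultured library 1 (0.0564) and after quantile normalization (0.142).

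Of 10 CHD genes, Chd7 rose, Chd1 and Chd1l fell, and 7 did not pass. Chd7, a remodeller of enhancers, stood at 7.70, 6.45 and 7.21 log2 CPM in tumour libraries and 5.98, 5.98 and 5.73 in cultured libraries. Here the spread lay in the tumour group, with library 2 nearest to culture. The change was 1.22 (SE 0.30, limma adjusted p = 0.0111), and it stayed called in 12 of 12 refits. Chd1, a motor of transcribed genes, stood at 7.06, 6.54 and 6.94 log2 CPM in tumour libraries and 7.77, 7.58 and 7.57 in cultured libraries, with a change of -0.79 (SE 0.17, limma adjusted p = 0.00723). Chd1l, which binds poly(ADP-ribose) at DNA breaks, changed by -0.66 (SE 0.23, limma adjusted p = 0.0484) and was not called in 7 of 12 refits, with limma adjusted p up to 0.152 without tumour library 3. It was also lost without tumour library 1 (limma adjusted p = 0.142), tumour library 2 (0.0715), cultured library 1 (0.0952) and cultured library 3 (0.0693). Chd4 and Chd3, the motors of the NuRD complex, did not pass, with changes of -0.22 and -0.04.

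The symbol Chd3os, on chromosome 11 from 69340461 to 69342641 of GRCm38 beside Chd3, matches the gene that GENCODE M21 names Rnf227 and annotates as protein-coding. It had 133 reads over the tumour libraries and 6 over the cultured libraries, a ratio of CPM of 23.6 (95% counting interval 10.6 to 65.4). As with Dnmt3l and Hdac9, its place in the table came from its tumour reads, so its direction was fixed by the filter. It carries a chromatin gene's name only through its place next to Chd3. Its call and that of Dnmt3l were lost after quantile normalization (limma adjusted p = 0.432 and 0.378).

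Of 7 bromodomain reader genes, Brd7 fell and 6 did not pass. Brd7, a subunit of the PBAF form of SWI/SNF, stood at 6.19, 6.19 and 6.10 log2 CPM in tumour libraries and 6.88, 6.88 and 7.09 in cultured libraries, with a change of -0.79 (SE 0.13, limma adjusted p = 0.0021). The groups did not overlap and the call held in 12 of 12 refits. Brd2, whose product binds acetylated histones at active genes, had a change of 0.07 and did not pass.

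**Figure D3:**
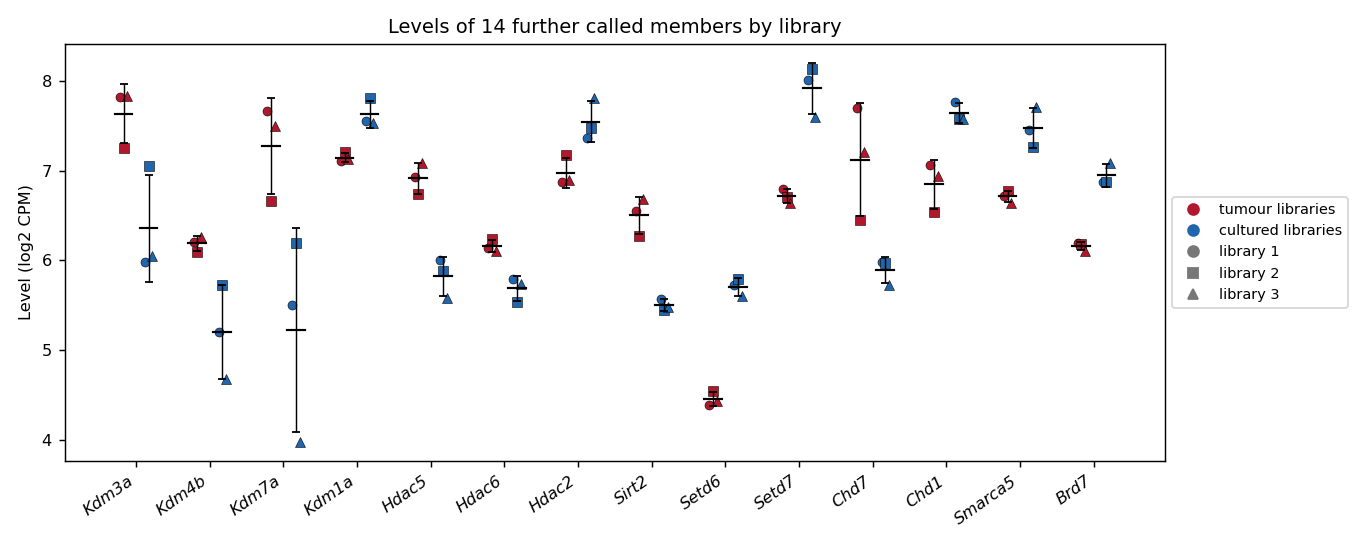
Levels (log2 CPM, vertical axis) of 14 further called members in 3 tumour (red) and 3 cultured (blue) libraries, with symbols for the library number, lines for the mean and bars for the SD of 3 libraries. Kdm3a, Kdm4b, Kdm7a, Hdac5, Hdac6, Sirt2 and Chd7 are higher and Kdm1a, Hdac2, Setd6, Setd7, Chd1, Smarca5 and Brd7 lower in tumour libraries. The widest bar is that of Kdm7a in culture.

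Levels were compared between members per kilobase of annotated exon. On that scale Brd2 ranked first of 90 and Chd4 came next, in both groups, with Brd2 at a mean of 6.09 log2 CPM per kb in tumour libraries and 6.02 in cultured libraries. Kdm6b ranked 3 in tumour libraries and 28 in cultured libraries, with 5.49 log2 CPM per kb in tumour libraries and 3.70 in cultured libraries. Kdm3a ranked 10 in tumour libraries and 38 in cultured libraries. Tet2 ranked 56 in tumour libraries and 82 in cultured libraries. Dnmt1 moved the other way, at rank 11 in tumour libraries and 3 in cultured libraries, as did Ezh2 at 47 in tumour libraries and 21 in cultured libraries. Union exon length includes exons that these cells may not use, so the ranks are approximate.

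The difference between related genes was taken within each library, where library scaling cancels, for 9 pairs. Gene length was not corrected for, so only the shift between groups is compared, by an exact two-sided permutation test that cannot go below p = 0.1 with 3 against 3. For Ezh2 minus Ezh1 the log2 difference was 0.01, 0.41 and 0.09 in tumour libraries and 1.75, 1.42 and 2.51 in cultured libraries. The groups did not overlap, and the shift was -1.73, a ratio 3.31-fold lower in tumour libraries (exact permutation p = 0.1, adjusted over 9 pairs 0.18). Kdm6a minus Kdm6b was -2.54, -1.89 and -2.30 in tumour libraries and -1.73, -1.06 and -0.67 in cultured libraries, a shift of -1.09 without overlap. Smarcc1 minus Smarcc2, scaffold subunits of SWI/SNF, was -0.50, -0.34 and -0.60 in tumour libraries and -0.06, 0.17 and 0.90 in cultured libraries, a shift of -0.82 without overlap, although neither gene was called alone as deposited. Hdac1 minus Hdac2 shifted by 0.60 and Dnmt3b minus Dnmt3a by -0.68, also without overlap, and each of these 5 pairs had the smallest p that the exact permutation test allows. How often other pairs of genes would not overlap was not tested. Taken singly, 59.8% of all genes did not overlap, so 5 of 9 pairs is not read as a trait of these pairs. The groups overlapped for Smarca4 minus Smarca2, Smarcd1 minus Smarcd2, Chd4 minus Chd3 and Kdm5a minus Kdm5b, whose shifts were -0.13, 0.06, -0.18 and -0.53. Without cultured library 3 the shift of Smarca4 minus Smarca2 was 0.47, that of Kdm5a minus Kdm5b -0.08 and that of Dnmt3b minus Dnmt3a -0.34. Without cultured library 2 the shift of Smarca4 minus Smarca2 was -0.66 and that of Smarcd1 minus Smarcd2 -0.13.

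**Figure D4:**
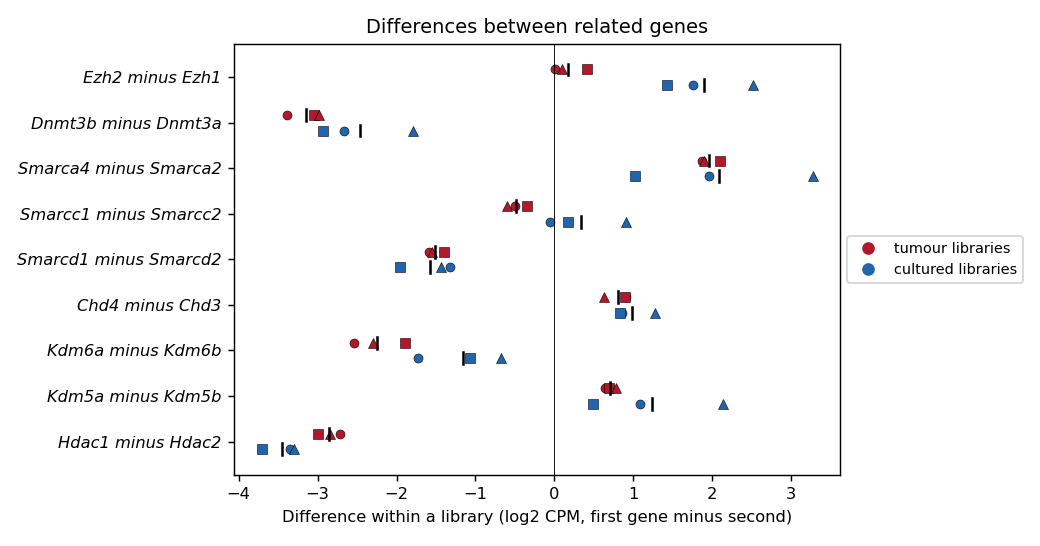
Difference between 2 related genes within a library (log2 CPM, first gene minus second, horizontal axis) for 9 pairs, tumour libraries in red above cultured libraries in blue. Circles, squares and triangles are libraries 1, 2 and 3, and black lines are group means. Groups stand apart for Ezh2 and Ezh1, Dnmt3b and Dnmt3a, Smarcc1 and Smarcc2, Kdm6a and Kdm6b, and Hdac1 and Hdac2.

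Cultured libraries varied more than tumour libraries. The median SD of the 90 genes was 0.12 in tumour libraries and 0.32 in cultured libraries on the log2 scale, and it was larger in culture for 79 genes (87.8%, beside 81.1% of all genes). Cultured library 3 differed from the mean of the other 2 by more than those 2 differed from each other for 64 members (71.1%, beside 61.7% of all genes). Kdm5b, an H3 lysine 4 demethylase, was at 6.52, 6.32 and 6.33 log2 CPM in tumour libraries and 6.35, 6.93 and 4.64 in cultured libraries. Cultured library 3 differed from the mean of cultured libraries 1 and 2 likewise for Hdac11, by -2.26 on the log2 scale, for Kdm7a by -1.87, for Chd5 by -1.73 and for Kdm4a by -1.56. It was high for Smarcc1, Smarca4 and Kdm8, with differences of 1.01, 0.99 and 1.49. In the same library G2/M genes exceeded their mean in cultured libraries 1 and 2 by a median of 0.61, and their part in these values was not tested.

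In the tumour group, library 2 gave the lowest value for 12 of the 15 members that rose (80.0%), beside 66.3% of all genes that rose. The differences from the mean of tumour libraries 1 and 3 were -1.09 for Tet2, -1.0 for Kdm6b, -1.0 for Chd7, -0.92 for Kdm7a and -0.57 for Kdm3a, on the log2 scale. Marker lists differed in the same library, by a median of -3.12 for neutrophils, -0.61 for macrophages, -0.63 for endothelial cells and -0.25 for fibroblasts, and by 0.44 for G2/M genes. Their part in these values was not tested. Without tumour library 2 the members that rose numbered 12 and those that fell 11.

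**Figure D5:**
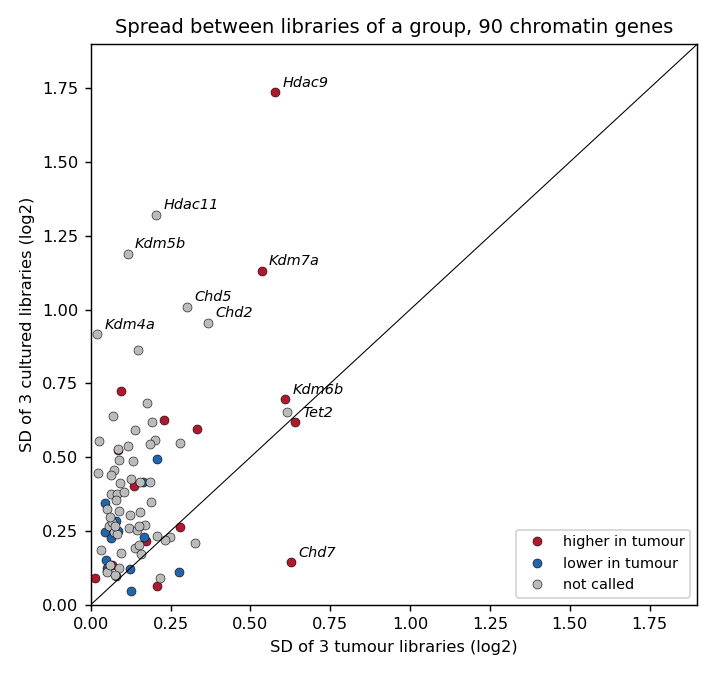
SD of the log2 level over 3 tumour libraries (horizontal axis) and over 3 cultured libraries (vertical axis) for each of 90 chromatin genes, in red if higher in tumour libraries, blue if lower and grey if not called. Points above the line of equality, 79 of 90, vary more in culture, and Chd7 lies far below the line.

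Further chromatin genes, 124 in the table from 10 lists and called partners here, fell more often than they rose. The lists hold genes of chromatin complexes and of DNA methylation, histone acetyltransferases, other methyltransferases and histone chaperones. Of the 124, 4 rose and 46 fell, with a median change of -0.42, beside 29.5% and 18.8% of all genes. Among 9 partners of EZH enzymes in PRC2, 5 fell and 2 rose. Suz12, a core subunit, had a change of -0.86 (SE 0.15) and Phf19, an accessory subunit, one of -1.41 (SE 0.29). Jarid2, which helps recruit PRC2, stood at 6.26, 5.47 and 6.33 log2 CPM in tumour libraries and 3.25, 3.85 and 3.80 in cultured libraries, a change of 2.39 (SE 0.28), and the accessory subunit gene Phf1 had a change of 1.61 (SE 0.17). In PRC1, 4 of 17 genes fell and 0 rose, with Pcgf6 at -1.11 and Cbx7 at -1.09.

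Among 20 other methyltransferase genes 10 fell and 1 rose. The one that rose was Nsd1, an H3 lysine 36 methyltransferase, at 6.30, 5.65 and 6.08 log2 CPM in tumour libraries and 3.59, 4.01 and 3.80 in cultured libraries, a change of 2.21 (SE 0.22). The arginine methyltransferase genes Prmt5 and Prmt7 had changes of -1.47 and -1.43. Of 10 histone chaperone genes 6 fell and 0 rose, with Asf1b, a carrier of new H3 and H4, at -1.47 and Supt16, a subunit of FACT, at -1.21. Of 12 genes of ISWI, INO80 and SRCAP complexes and related motors 6 fell and 0 rose, with Baz1a, the ISWI partner ACF1, at -1.17 and Hells, a motor needed for DNA methylation, at -1.14.

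Of 14 SWI/SNF partner genes 7 fell and 0 rose, among them Phf10, a PBAF subunit, at -1.55. The 7 include Dpf3 at -2.34, with few reads, at -3.88, -2.44 and -2.54 log2 CPM in tumour libraries. Its place in the table came from its cultured reads, so its direction was fixed by that filter. In the COMPASS list 4 of 9 fell and 0 rose, with Wdr5, a shared scaffold, at -0.98 and Ncoa6 at -0.66. Among 10 histone acetyltransferases Kat2b rose, with a change of 1.0 (SE 0.17), and 3 fell, with Hat1 at -0.75 and Kat7 at -0.68. In the NuRD and corepressor list 1 of 16 fell, Mta2 at -0.54, and 0 rose, and in the list of DNA methylation partners 0 of 7 were called.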

How the data were processed

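RNA of 3 tumour and 3 cultured libraries was extracted with a column kit and made into TruSeq libraries, per the labels' protocols. Whether strand was kept is not given in the sources used here. HISAT, HTSeq and limma are the tools, and mm10 the build, per the submitters' processing notes. Their versions are not given in the sources used here. The deposited values are log2 CPM by gene symbol in the form of limma's voom, with 0.5 reads added and totals scaled by TMM. Solving this form gave whole reads, within 0.01, for 100% of values, and the smallest total over 6 libraries was 61 reads. Because the deposited unit is log2, no count model was run.

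All 13912 genes were fitted with limma 3.58.1 in R 4.3.3 (variance trend, two-sided, Benjamini-Hochberg at 0.05). The fit was tested on simulated reads with the same spread in both groups, unlike these data. It was thus not checked under unequal spread. The label numbers are not shared between groups, so no pairing was used. Whether libraries of the groups were handled in pairs is not given in the sources used here. Named members were the 12 with the largest called rise and the 12 with the largest called fall without overlap, up to 3 called per role list (or the 2 highest where none was called) and the paralog pairs. Smarca5 minus Smarca1 was planned but Smarca1 was not analysed here. The remaining called members were named as well, and other members named were chosen after their values were seen. Partners were named by up to 2 called genes a list and direction. Of the genes in the role lists, Kdm4d, Kdm5d, Kmt5b, Kmt5c and Smarca1 were not analysed here. The members and lists, and the motifs, were chosen with earlier results of these data known. Coordinates and exon lengths are GENCODE M21 on GRCm38. Alternatives were other scalings, weights, a filter, a stricter threshold and leaving out each library. Counting intervals cover counting error only. Some values are not reported here.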

Additional observations from a re-analysis of the deposited data

How the results depend on the processing

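Of the 15 members that rose, 7 stayed called in each of the refits that gave them a value (other scalings, weights, no variance trend, a filter, 1 library left out), and of the 14 that fell, 8 did. The 7 include Hdac9, whose place in the table came from its tumour reads. Members called higher, 15 as deposited, numbered 9 to 14 when a tumour or cultured library was left out other than cultured library 3, and 17 without that one, and 7 at an adjusted p of 0.01. Members called lower, 14 as deposited, numbered 8 to 22 when 1 library was left out, 23 after centring on the median, 24 after quantile normalization and 6 at an adjusted p of 0.01. Over all genes, 4099 were higher as deposited (3301 to 4625 when 1 library was left out, 2246 with a filter on a mean of at least 1). A total of 2612 were lower (1520 to 3301 when 1 library was left out, 5513 after quantile normalization, 1406 at an adjusted p of 0.01). The cause of these moves was not tested, except that a stricter threshold leaves fewer calls by construction. Of the 90 members, Tet1 and Sirt4 changed direction with a call, both after quantile normalization. There their changes were -2.64 for Tet1 (limma adjusted p = 0.00171) and -1.10 for Sirt4 (limma adjusted p = 0.00521), beside 0.44 and 0.28 as deposited, neither called. The other 88 were not called in the opposite direction in the alternatives run. The filter left 85 members and 10970 genes, so Hdac9, Dnmt3l and Chd3os had no value there. No paired analysis was possible because the labels give the groups no shared replicate numbers. Depth limits Dnmt3l, Hdac9 and Chd3os, with 2 to 6 reads over the cultured libraries.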
